A study of Mus musculus with 9 samples.

Results

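The genes described here are 8 carriers of sodium, acid and base in the proximal tubule, chosen by name from the 24421 genes of the deposited table: Slc9a3, Slc9a8, Slc26a6, Slc4a4, Slc4a2, Slc13a3, Atp1b1 and Fxyd2. RNA was sequenced from tdTomato+ tubular epithelia sorted out of the digested kidney cortex of 9 mice, each library from 1 animal. There were 3 groups of 3: non-diabetic *db/m* mice, heterozygous for the Lepr db mutation of the leptin receptor, *db/db* mice, homozygous for it and given vehicle, and *db/db*-dapa mice, homozygous for it and given the SGLT2 inhibitor dapagliflozin in the drinking water at 1.5 mg/kg/day for 8 weeks. All 9 mice carried SLC34a1GCE, a GFP-CreERT2 cassette in the Slc34a1 locus, and the reporter R26tdTomato on C57BL/6, and received 5 tamoxifen injections of 3 mg each from 8 weeks of age. The tdTomato label therefore marks cells, and their descendants, with an active Slc34a1 promoter at that age. GEO's labels name the tissue only as kidney. The sex of the mice is not given in the sources used here.

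The proximal tubule reclaims most of the filtered sodium and bicarbonate. The luminal exchanger NHE3, encoded by Slc9a3, takes up sodium and secretes protons, which turn filtered bicarbonate into carbon dioxide and water. Bicarbonate formed in the cell leaves across the basolateral membrane with sodium through NBCe1, encoded by Slc4a4. The sodium pump, built of an alpha, a beta (Atp1b1) and a regulatory FXYD (Fxyd2) subunit, keeps cell sodium low and consumes much of the ATP of this segment. Slc26a6 exchanges luminal anions, Slc4a2 exchanges chloride for bicarbonate, and Slc13a3 takes up dicarboxylates with sodium from the blood side.

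Upstream sequences are shown for Slc9a3 and Slc4a4, the 2 members that were most alike between mice. Slc9a3 lies on the plus strand of chromosome 13 from 74121457 to 74169442 in GRCm38 (mm10), and Slc4a4 on the plus strand of chromosome 5 from 88886818 to 89239653. Slc4a4 has a distal start and an internal one in RefSeq, and the deposited counts are per gene, so the use of each start could not be read. The 250 bases before each start follow 5′ to 3′, from RefSeq on GRCm38.p6, at chr13:74121163-74121412 for Slc9a3 and at chr5:88887010-88887259 and chr5:89027716-89027965 for Slc4a4. The gene coordinates above are those of GENCODE, where Slc4a4 begins at 88886818, before its distal RefSeq start. The window of that start therefore lies within the gene as given. Capitals mark matches, on either strand, to GGGCGG (a GC box) or AGGTCA (a motif of nuclear receptors).
Slc9a3: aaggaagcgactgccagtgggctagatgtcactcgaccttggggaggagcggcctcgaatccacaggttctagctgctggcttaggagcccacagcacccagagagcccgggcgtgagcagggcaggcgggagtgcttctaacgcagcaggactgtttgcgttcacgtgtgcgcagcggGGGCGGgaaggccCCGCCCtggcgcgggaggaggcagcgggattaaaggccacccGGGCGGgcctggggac
Slc4a4, distal start: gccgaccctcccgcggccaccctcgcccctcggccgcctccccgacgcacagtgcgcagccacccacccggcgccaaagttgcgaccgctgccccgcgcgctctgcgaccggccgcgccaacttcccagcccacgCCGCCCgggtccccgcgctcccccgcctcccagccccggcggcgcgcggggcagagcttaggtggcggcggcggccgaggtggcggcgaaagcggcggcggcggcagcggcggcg
Slc4a4, internal start: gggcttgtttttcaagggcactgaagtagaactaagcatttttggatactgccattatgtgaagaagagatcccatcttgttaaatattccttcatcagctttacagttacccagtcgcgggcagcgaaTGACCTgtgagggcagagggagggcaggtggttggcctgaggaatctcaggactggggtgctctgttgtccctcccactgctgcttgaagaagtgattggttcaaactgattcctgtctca
The windows differed in composition: 67.6% G or C with 19 CpG for Slc9a3, 82% with 44 CpG for the distal Slc4a4 start, and 48.8% with 3 CpG for its internal start. GGGCGG was matched 3 times in the Slc9a3 window and 1 time in the distal Slc4a4 window. AGGTCA was matched 1 time, in the internal Slc4a4 window. Of all 32851 such windows, 32.7% hold GGGCGG and 14% hold AGGTCA. Another motif, GTTAAT (the shorter core of the HNF1 motif), had 0 matches in these windows and stands in 6.43% of all windows. A match is a match of letters and was not tested for binding.

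Counts summed to between 2733349 and 9033123 per mouse and were scaled to CPM, the count relative to the size of the library. A count of 3 was worth 1.02 CPM in the smallest library, *db/db* replicate 1, and 0.339 CPM in the largest. Of the 24421 genes, 15583 passed a filter at 0.3 CPM in at least 2 mice, all 8 carriers among them. The 10 proximal tubule markers that were looked up, such as Lrp2 and Slc34a1, summed to 14291 to 16172 CPM in *db/m* mice, 16857 to 20748 in *db/db* mice and 17796 to 21766 in *db/db*-dapa mice. By this sum both diabetic groups lay above *db/m* mice, and *db/db* replicate 3 was the highest of its group. Lrp2, with a transcript of 15.46 kb, was at 5281 CPM in that mouse and at 2182 and 1646 CPM in *db/db* replicates 1 and 2. By gene, 7 of the 10 had a log2 fold change above 0 and 3 below 0 in *db/db* versus *db/m* mice. Among the latter, Ggt1 was at means of 1657 CPM in *db/m* and 813 CPM in *db/db* mice, without overlap. The part of these differences in the values of the carriers was not tested. Markers of the distal nephron were present too: 26 markers of the thick ascending limb, distal convoluted tubule and collecting duct summed to 2099 to 4259 CPM in *db/m* mice, 1671 to 3236 in *db/db* mice and 1576 to 1814 in *db/db*-dapa mice, and were highest in *db/m* replicate 3. Of these 26 markers 0 were at 0 in any mouse. The 6 S3 segment markers summed to 3823 to 4531 CPM in *db/m* mice and to 697 to 2155 in the other groups. Acy3 made up most of this sum, at a mean of 2964 CPM in *db/m* mice, and Slc5a1, of the same list, went the other way, at means of 71.5, 92.3 and 137 CPM in *db/m*, *db/db* and treated mice. In a sorted population, fewer cells of a type and less RNA per cell cannot be told apart.

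The libraries also differed in the balance of long and short transcripts. Over 9081 genes with a mean of at least 10 CPM, the median log2 difference from the mean of the 9 mice was taken for the 2120 genes with a transcript of 5 kb or more, minus that of the 398 genes under 1 kb. This long-minus-short value was -0.40, -0.02 and -0.94 in *db/m* mice, -0.29, -0.46 and 0.94 in *db/db* mice, and -0.02, 0.53 and 0.66 in *db/db*-dapa mice (replicates 1 to 3). *db/db* replicate 3 stood apart from the other *db/db* mice and beside *db/db*-dapa replicates 2 and 3. This bears on the long Slc4a4 (7.93 kb) and Slc9a3 (5.12 kb) and the short Fxyd2 (1.69 kb), and its values are set beside theirs below.

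Per kilobase of the longest annotated transcript, the carriers spanned 3 orders of magnitude. In *db/m* mice the mean level per kb was 2022 CPM for Fxyd2, 825 for Atp1b1, 220.3 for Slc13a3, 86.5 for Slc4a4, 17.9 for Slc9a8, 13.7 for Slc4a2, 4.02 for Slc9a3 and 1.75 for Slc26a6. Among neighbors in this order, the values of the mice overlapped only for Slc9a8 and Slc4a2. In *db/db*-dapa mice the order was the same apart from Slc9a3, at 15.3 CPM per kb, which lay between Slc9a8 (16.5) and Slc4a2 (14.6) and overlapped with both. In *db/db* mice Slc13a3 and Slc4a4 overlapped as well, and Slc9a3 ranged from 4.98 to 30.5 CPM per kb.

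**Figure D1:**
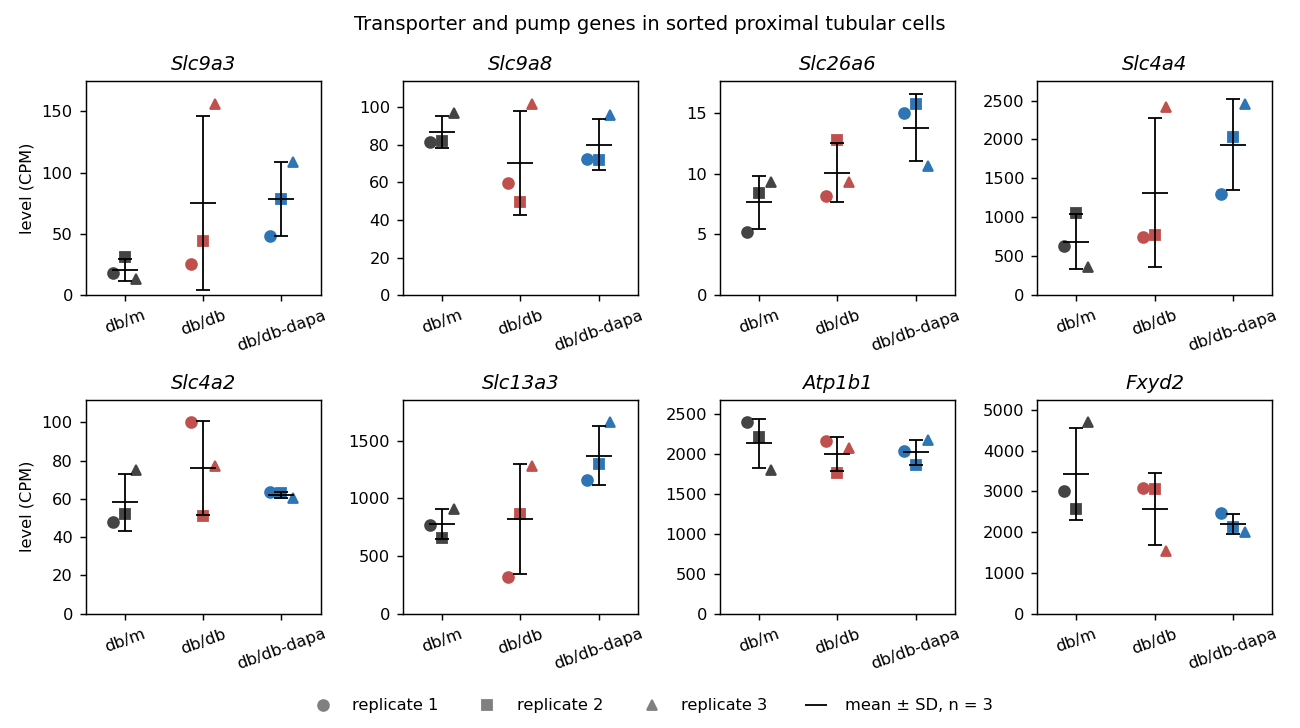
Level in CPM (vertical axis, from 0) of the 8 carriers in each of the 9 mice, by group. Markers are single mice (circle, square and triangle for replicates 1, 2 and 3) and bars are the mean ± SD of 3 mice. Slc9a3 and Slc4a4 were highest in *db/db* replicate 3 and in the *db/db*-dapa mice, where Fxyd2 was low.

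Of the luminal exchangers, Slc9a3 had the widest differences. It was at 18.0, 30.9 and 12.9 CPM in *db/m* mice, at 25.5, 44.0 and 156 CPM in *db/db* mice, and at 48.0, 78.5 and 108 CPM in *db/db*-dapa mice (replicates 1 to 3). Each *db/db*-dapa mouse lay above each *db/m* mouse, while the *db/db* group overlapped with both and was spread widely by replicate 3. The means were 20.6 ± 9.28, 75.2 ± 70.7 and 78.3 ± 30.2 CPM (SD, n = 3 each) in the order of these groups. The log2 fold change of Slc9a3 was 1.88 (standard error 0.59) in *db/db* versus *db/m* mice and 1.92 (standard error 0.59) in *db/db*-dapa versus *db/m* mice, with adjusted p = 0.191 and 0.171 (quasi-likelihood test of edgeR, Benjamini-Hochberg adjustment over all genes tested, here and below). With dapagliflozin versus vehicle in *db/db* mice the log2 fold change of Slc9a3 was 0.04 (standard error 0.55, adjusted p = 0.995 with edgeR), and its sign flipped with the scaling. The 5 S1 segment markers, which label the start of the proximal tubule, summed to 2194 to 2709 CPM in *db/m*, 3274 to 5190 in *db/db* and 3400 to 3732 in *db/db*-dapa mice. The sum was highest in *db/db* replicate 1, as were Slc5a2, Slc5a12 and Slc7a7 of this list. Slc22a8 was highest in *db/db* replicate 2 and Slc6a19 in *db/db* replicate 3. The part of S1 cells in the values of Slc9a3 was not tested. Without *db/db* replicate 3 these 3 fold changes of Slc9a3 were 0.76, 1.93 and 1.17 on the log2 scale, and the adjusted p versus *db/m* mice was 0.0195 for *db/db*-dapa mice (edgeR). Without *db/db* replicate 1, Slc9a3 was called in *db/db* versus *db/m* mice (log2 fold change 2.28, adjusted p = 0.0919 with edgeR). DESeq2 gave an adjusted p of 0.0309 and 0.0239 for Slc9a3 in *db/db* and *db/db*-dapa versus *db/m* mice.

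Slc9a8, which encodes the exchanger NHE8 of the brush border and of internal membranes, was at 81.6, 82.0 and 96.8 CPM in *db/m*, 59.8, 49.6 and 102 CPM in *db/db* and 72.3, 72.2 and 95.8 CPM in *db/db*-dapa mice. The groups overlapped in every comparison, and the highest *db/db* value was again that of replicate 3. The log2 fold change of Slc9a8 was -0.29 (standard error 0.25) in *db/db* versus *db/m* mice and 0.18 (standard error 0.25) in *db/db*-dapa versus *db/db* mice. These values were -0.68 and 0.57 when *db/db* replicate 3 was left out, and -0.09 and -0.02 when replicate 2 was. Thus, at the level of RNA, the 2 sodium-proton exchangers differed in their pattern: Pearson's r between Slc9a3 and Slc9a8 was 0.19 over the 9 mice.

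Slc26a6, the luminal anion exchanger that handles chloride, oxalate and bicarbonate, had the fewest reads, 24 to 120 counts per mouse. It was at 5.20, 8.37 and 9.33 CPM in *db/m*, 8.16, 12.8 and 9.35 CPM in *db/db* and 15.05, 15.8 and 10.6 CPM in *db/db*-dapa mice. All *db/db*-dapa mice were above all *db/m* mice, and the other pairs of groups overlapped. Its log2 fold change in *db/db*-dapa versus *db/m* mice was 0.86 (standard error 0.29, adjusted p = 0.201 with edgeR).

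At the basolateral membrane, Slc4a4 varied as Slc9a3 did. It was at 637, 1059 and 362 CPM in *db/m* mice, at 752, 773 and 2419.85 CPM in *db/db* mice and at 1300.1, 2036 and 2457 CPM in *db/db*-dapa mice. The *db/db*-dapa mice did not overlap with the *db/m* mice. In the *db/db* group, replicates 1 and 2 lay within the range of *db/m* mice, and replicate 3 beside the highest *db/db*-dapa mouse. The means were 686 ± 351, 1315 ± 957 and 1931 ± 585 CPM (SD, n = 3 each) in the same order. Its log2 fold change was 1.49 (standard error 0.49) in *db/db*-dapa versus *db/m* mice, 0.94 (standard error 0.49) in *db/db* versus *db/m* mice and 0.55 (standard error 0.48) in *db/db*-dapa versus *db/db* mice, with adjusted p = 0.192, 0.421 and 0.854 (edgeR). Without *db/db* replicate 3 the latter 2 values were 0.14 and 1.35, and *db/db*-dapa versus *db/m* mice passed an adjusted p of 0.1 (0.0365 with edgeR, log2 fold change 1.496). With DESeq2 on all mice the adjusted p of that comparison was 0.0470.

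Slc4a2, the chloride-bicarbonate exchanger AE2, showed no such pattern. It was at 47.7, 51.8 and 75.3 CPM in *db/m* mice, 99.9, 50.8 and 77.3 CPM in *db/db* mice and 63.3, 62.9 and 60.4 CPM in *db/db*-dapa mice. The *db/db*-dapa mice lay close together and within the range of both other groups. Its log2 fold change was 0.38 (standard error 0.25) in *db/db* versus *db/m* mice and -0.28 (standard error 0.25) in *db/db*-dapa versus *db/db* mice. Leaving out *db/db* replicate 1 gave 0.14 and -0.05, and leaving out replicate 2 gave 0.60 and -0.51. The gene overlaps Fastk on the opposite strand, and Atp1b1 overlaps Nme7, so reads at the shared ends are uncertain if strand was not used in counting.

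Slc13a3, the sodium-dicarboxylate cotransporter of the blood side, was at 769, 652 and 908 CPM in *db/m* mice, at 319, 865 and 1277 CPM in *db/db* mice and at 1158, 1295 and 1658 CPM in *db/db*-dapa mice. All *db/db*-dapa mice exceeded all *db/m* mice, and the *db/db* values spread across both, with the lowest in replicate 1. For Slc13a3 the log2 fold change came to 0.82 (standard error 0.38) in *db/db*-dapa versus *db/m* mice and 0.74 (standard error 0.38) in *db/db*-dapa versus *db/db* mice (adjusted p = 0.283 and 0.854 with edgeR). The latter value ranged from 0.35 when *db/db* replicate 1 was left out to 1.22 when replicate 3 was. Its log2 fold change was 0.08 (standard error 0.38) in *db/db* versus *db/m* mice, a value that turned to -0.39 without *db/db* replicate 3 and was 0.46 when replicate 1 was left out. With only the 6 mice of *db/db*-dapa and *db/m* in the fit, Slc13a3 passed the adjusted p (0.0444 with edgeR, log2 fold change 0.83).

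For the sodium pump, the beta subunit Atp1b1 hardly varied. It was at 2388, 2205 and 1790.5 CPM in *db/m*, 2158, 1753 and 2064 CPM in *db/db* and 2032, 1852 and 2167 CPM in *db/db*-dapa mice. The log2 fold changes were -0.10, 0.02 and -0.08 (standard error 0.18 each) in *db/db* versus *db/m*, *db/db*-dapa versus *db/db* and *db/db*-dapa versus *db/m* mice, and its sign flipped with the scaling in the first 2 of these. Fxyd2, the gamma subunit, was at 3014, 2567 and 4692 CPM in *db/m* mice, 3086, 3070.0 and 1543 CPM in *db/db* mice and 2478, 2133 and 1997 CPM in *db/db*-dapa mice. All *db/db*-dapa mice were below all *db/m* mice, the highest *db/m* value was that of replicate 3, and the lowest of all 9 was that of *db/db* replicate 3.

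The log2 fold change of Fxyd2 was -0.64 (standard error 0.29) in *db/db*-dapa versus *db/m* mice, with an adjusted p of 0.279 (edgeR), and -0.35 without *db/m* replicate 3. In *db/db* versus *db/m* mice it was -0.42 (standard error 0.29), and -0.13 without *db/m* replicate 3. Fxyd2 and Atp1b1 are also made by the distal nephron, whose 26 markers summed to 2615, 2099 and 4259 CPM in *db/m* mice, 3236, 1671 and 1863 CPM in *db/db* mice and 1814, 1576 and 1749 CPM in *db/db*-dapa mice. The marker sum and Fxyd2 were highest in *db/m* replicate 3, where Atp1b1, at 1790.5 CPM, was the lowest of the *db/m* mice. In *db/db* replicates 2 and 3 the marker sum was 1671 and 1863 CPM, and Fxyd2 was at 3070 and 1543 CPM. The part of distal nephron cells in the values of Fxyd2 and Atp1b1 was not tested.

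**Figure D2:**
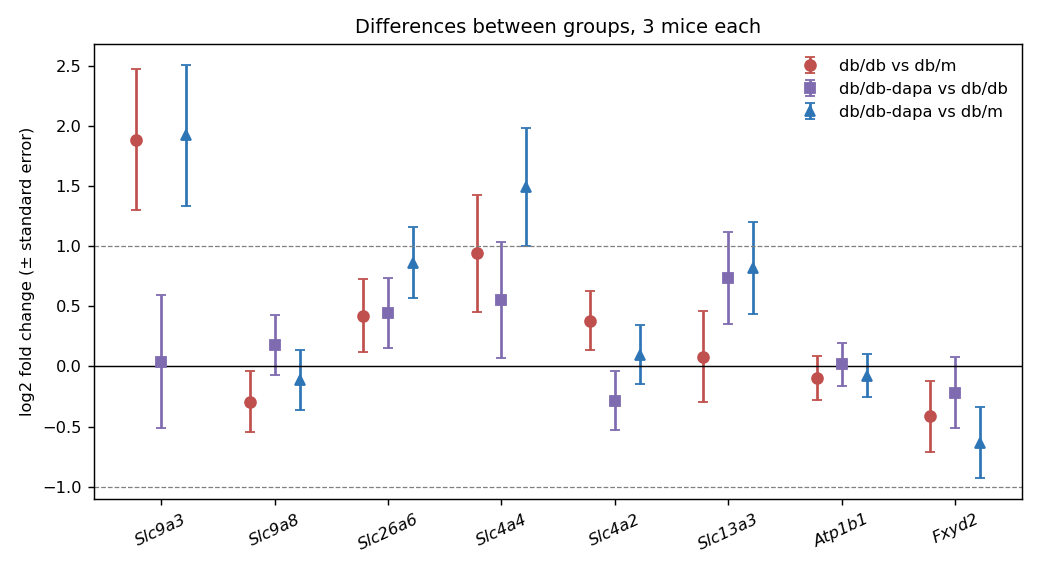
Log2 fold change (vertical axis) with its standard error from edgeR for the 8 carriers in the 3 comparisons, 3 mice per group. Dashed lines mark an absolute value of 1. Slc9a3 lies at 1.88 and 1.92 versus *db/m* mice and at 0.04 between the *db/db* groups with and without dapagliflozin.

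Calls required an adjusted p under 0.1 together with a log2 fold change beyond 1 in either direction. Of the 8 carriers, 0 were called in *db/db* versus *db/m* mice, where 1.24% of all genes tested were, and 0 had an adjusted p under 0.1 (1.67% of all genes). Slc9a3 had an unadjusted p under 0.05 (0.00797 with edgeR), as did 13.7% of all genes. With dapagliflozin versus vehicle, 0 carriers were called, as were 0% of all genes, and 0 had an unadjusted p under 0.05 (5.19% of all genes). For *db/db*-dapa versus *db/m* mice 0 were called (1.05% of all genes), 0 had an adjusted p under 0.1 (1.31% of all genes), and 3, Slc9a3, Slc4a4 and Slc26a6, had an unadjusted p under 0.05 (18.2% of all genes), all 3 with higher values (9.77% of all genes). DESeq2 called 1, 0 and 2 carriers in these 3 comparisons, and 363, 13 and 507 of all genes. With limma it was 0 carriers in each, and 200, 0 and 146 of all genes.

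The *db/db*-dapa and *db/m* mice did not overlap for 5 of the 8 carriers, 4 of them higher (Slc9a3, Slc4a4, Slc26a6 and Slc13a3) and 1 lower (Fxyd2). Over all genes tested this held for 28.1%, 14.4% higher and 13.7% lower. The *db/db* mice overlapped with the *db/m* and with the *db/db*-dapa mice for each of the 8, against 16.4% and 10.2% of all genes without overlap. For the 5 genes the exact two-sided permutation test of log2(CPM + 1) gave p = 0.1, the smallest that 3 against 3 allows. The median log2 fold change of the 8 was 0.23, 0.11 and 0.46 in *db/db* versus *db/m*, *db/db*-dapa versus *db/db* and *db/db*-dapa versus *db/m* mice, beside 0.02, -0.01 and -0.02 over all genes. The comparisons share mice, so their values are not independent of each other.

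Of the 8 carriers, 3 ran closely with the long-minus-short value of the library. Over the 9 mice, Pearson's r with it was 0.98 for Slc4a4, 0.94 for Slc9a3 and -0.98 for Fxyd2. It was 0.55 for Slc13a3, 0.36 for Slc9a8, 0.29 for Slc26a6, 0.22 for Atp1b1 and 0.07 for Slc4a2. The longest transcripts of Slc9a3 and Slc9a8 measure 5.12 and 4.85 kb. The part of transcript length in these r was not tested. The levels and the length value come from the same libraries, and with 9 points these are descriptions.

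When the trend with transcript length was removed from each library before the fit, an alternative chosen after the data were seen, the log2 fold change in *db/db*-dapa versus *db/m* mice was 1.67 (standard error 0.49) for Slc9a3, 1.11 (standard error 0.35) for Slc4a4, 0.74 (standard error 0.36) for Slc13a3 and -0.40 (standard error 0.23) for Fxyd2. In *db/db* versus *db/m* mice it was 1.67 for Slc9a3, 0.57 for Slc4a4 and -0.23 for Fxyd2, and 0 of the 8 were called in each comparison. Before the removal, the log2 fold changes in *db/db*-dapa versus *db/m* mice were 1.92 for Slc9a3, 1.49 for Slc4a4, 0.82 for Slc13a3 and -0.64 for Fxyd2. In *db/db* versus *db/m* mice they were 1.88 for Slc9a3, 0.94 for Slc4a4 and -0.42 for Fxyd2. Only the average trend with length was removed, and its part in the values of single genes was not tested. What set the balance of long and short transcripts was not tested.

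**Figure D3:**
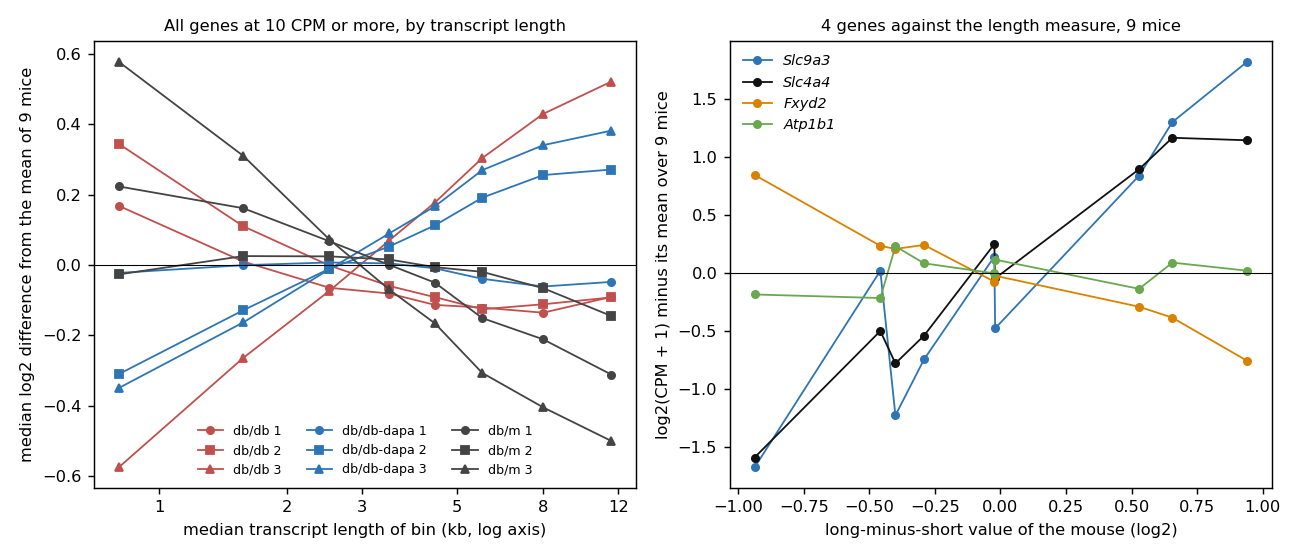
Left, median log2 difference from the mean of the 9 mice (vertical axis) for genes with a mean of at least 10 CPM in 8 bins of transcript length (kb, log axis), 1 line per mouse. Right, log2(CPM + 1) of 4 genes, each minus its mean, against the long-minus-short value of each mouse. Slc4a4 and Slc9a3 run up with that value, Fxyd2 runs down and Atp1b1 stays near 0.

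Among the 28 pairs of carriers, Slc9a3 and Slc4a4 were the most alike over the 9 mice (Pearson's r = 0.95), and both ran against Fxyd2 (r = -0.93 and -0.96). Atp1b1 did not run with either (r = -0.04 with Slc9a3 and 0.15 with Slc4a4). Out of 9134 other genes with a mean of at least 10 CPM, the 2 most like Slc9a3 in log2(CPM + 1) were Vps13d (r = 0.99) and Lpar2 (0.99). Their transcripts measure 15.8 and 5.8 kb. The 3 most like Slc4a4 were Erbb3 (r = 0.996), Pde8a (0.99) and Col4a3 (0.99), with transcripts of 6.02, 3.80 and 8.55 kb. For Fxyd2 they were Ndufs5 (r = 0.99), a subunit of complex I, Chchd2 (0.99) and Pop5 (0.99), with transcripts of 0.68, 2.07 and 1.59 kb. Atp1b1 had less close neighbors, Csnk2a2 (r = 0.96), Mboat7 (0.93) and Srsf1 (0.93).

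The other genes of sodium, acid and base transport were followed as 8 lists of 85 genes, 77 of which were tested. In *db/db* versus *db/m* mice 1 of the 77 was called (1.24% of all genes), higher: Sgk1, a kinase that raises sodium transport, at 161, 94.2 and 92.6 CPM in *db/m* and 299, 329 and 307 CPM in *db/db* mice. The groups did not overlap, and the log2 fold change was 1.42 (standard error 0.25, adjusted p = 0.0239 with edgeR). Next by p were Car4, a luminal carbonic anhydrase (log2 fold change -0.88, standard error 0.24, adjusted p = 0.140 with edgeR), and Car12, a basolateral one (0.80, standard error 0.25, adjusted p = 0.198 with edgeR).

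For *db/db*-dapa mice, compared with *db/m*, 2 of the 77 were called (1.05% of all genes), both higher. Car12 was at 266, 278 and 186 CPM in *db/m*, 377, 332 and 564 CPM in *db/db* and 416, 546 and 651 CPM in *db/db*-dapa mice, and its log2 fold change was 1.14 (standard error 0.25, adjusted p = 0.0866 with edgeR). Sgk1 was at 274, 179 and 267 CPM in *db/db*-dapa mice, which was 1.05 above *db/m* mice on the log2 scale (standard error 0.25, adjusted p = 0.0987 with edgeR). Car5b, a mitochondrial carbonic anhydrase, passed the adjusted p only (0.0996 with edgeR, log2 fold change 0.94). These adjusted p lie close to the threshold, and 0 of the 77 were called without *db/m* replicate 3, *db/db*-dapa replicate 2 or *db/db*-dapa replicate 3.

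With dapagliflozin versus vehicle, 0 of the 77 were called (0% of all genes), and 8 had an unadjusted p under 0.05 (5.19% of all genes), 2 higher (1.91% of all genes) and 6 lower (3.27% of all genes). The 3 with the smallest p were Slc4a3, Slc4a9 and Wnk4, a kinase that controls distal salt transport, with log2 fold changes of -1.84 (standard error 0.63), -1.26 (standard error 0.45) and -0.71 (standard error 0.27) and an adjusted p of 0.854 each (edgeR). Slc4a9, an anion exchanger of intercalated cells, was at 78.9, 34.8 and 25.3 CPM in *db/db* and 23.7, 17.7 and 15.6 CPM in *db/db*-dapa mice. The 8 intercalated cell markers, Slc4a9 among them, summed to 142 to 254 CPM in *db/db* and 87.7 to 132 CPM in *db/db*-dapa mice. Their part in these values was not tested.

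By list, the median log2 fold change in *db/db*-dapa versus *db/m* mice was -0.30 for the 22 proton pump subunits, with 5 above and 17 below 0 and 7 lower at an unadjusted p under 0.05 (8.39% of all genes). Of the 8 intercalated cell markers, 2 of them proton pump subunits, 8 were below 0, with a median of -0.93, and their part in the values of the pump was not tested. The median was 0.59 for the 8 carbonic anhydrases, with 6 above and 2 below 0. It was 0.28 for the 7 tested sodium-proton exchangers other than Slc9a3 and Slc9a8 and -0.58 for the 8 tested sodium pump subunits other than Atp1b1 and Fxyd2, beside -0.02 over all genes.

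**Figure D4:**
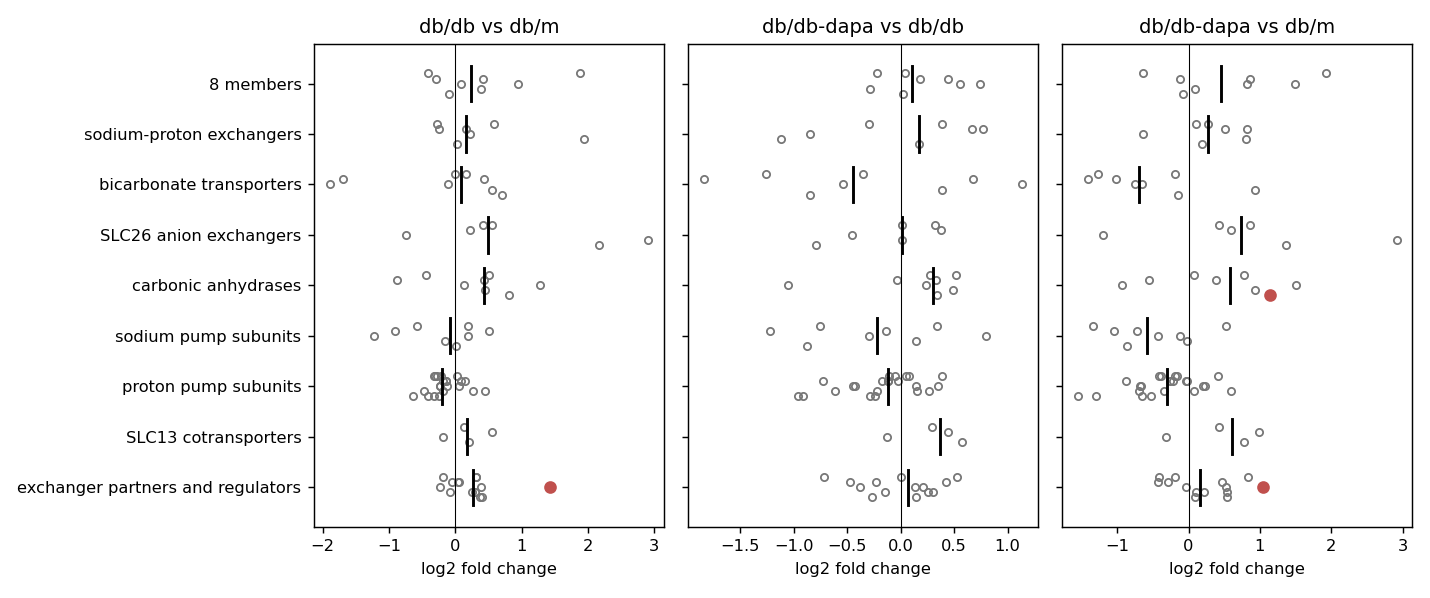
Log2 fold change (horizontal axis) of the 8 carriers and of the tested genes of 8 related lists in the 3 comparisons. Each circle is a gene, filled red where it was called, and black bars are list medians. Sgk1 was called in both comparisons with *db/m* mice and Car12 in that of *db/db*-dapa mice.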

How the data were processed

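The authors extracted RNA from sorted cells (TRIzol, then a column), made stranded mRNA libraries and read them single-end. Per the submitters' processing notes, TopHat2 2.0.13, Bowtie2 2.2.3, SAMtools 0.1.19 and Cufflinks 2.2.1 were used with mm10. The table the authors deposited is named as FPKM, but its values have the form of estimated counts. Whole numbers made up 90.9% of all values and 85.9% of those above 0, and the sums per mouse were unequal (2733349 to 9033123). How they were counted is not given in the sources used here. They were rounded to whole numbers, scaled by TMM and tested in edgeR 4.0.16 (R 4.3.3) by its legacy quasi-likelihood fit to all 9 mice, with p-values adjusted over 15583 genes. DESeq2 1.42.0 and limma 3.58.1 on log2(CPM + 1) were alternatives. Standard errors were derived from the F value. Scripts were tested on simulated data.

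Lengths and coordinates are those of GENCODE M21 (GRCm38), with 23358 symbols matched directly, 666 as older symbols and 397 not matched, and 98.9% of the tested genes had a length. RefSeq upstream windows were found for 7 of the 8 genes, not for Fxyd2. The 8 genes and all lists were chosen with earlier results of these data known. Related genes were named if called or among the 3 smallest p in a comparison. Some genes set by the naming rules are not reported here. Unused columns of samples numbered 0. Replicate numbers were not treated as pairs of mice in the main fit.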

Additional observations from a re-analysis of the deposited data

How the results depend on the processing

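Each library was also left out in turn, and 12 other settings were tried, of which the removal of the length trend was added after seeing the data. The cause of the changes below was not tested. Of the 8 carriers, the number called in *db/db* versus *db/m*, *db/db*-dapa versus *db/db* and *db/db*-dapa versus *db/m* mice was 0, 0 and 0. It was 1, 0 and 2 with DESeq2 and 2 in the last with only the 2 groups in the fit, and it ranged from 0 to 1, 0 to 0 and 0 to 2 with 1 mouse left out. The number with an adjusted p under 0.1 was also 0 in each, 1 and 2 with DESeq2 in the comparisons with *db/m* mice, 3 with only the 2 groups in the last, and 0 to 1 and 0 to 2 with 1 mouse left out. Of all genes, 194, 0 and 164 were called. DESeq2 called 363, 13 and 507, the 2-group fits 114 and 626 in the comparisons with *db/m* mice, and 275 were called in the last with no filter. Leaving out 1 mouse gave 84 to 230 genes in *db/db* versus *db/m* (84, 126 and 112 without *db/m* replicates 1 and 3 and *db/db* replicate 2), 0 to 272 in *db/db*-dapa versus *db/db* (272 without *db/db* replicate 3, 1 without *db/db*-dapa replicate 2) and 14 to 662 in *db/db*-dapa versus *db/m* mice (662 when *db/db* replicate 3 was the one left out, then 37, 72 and 54 for *db/m* replicates 1, 2 and 3, and 254, 14 and 41 for *db/db*-dapa replicates 1, 2 and 3). Of the 77 related genes, 1, 0 and 2 were called. In the last comparison it was 7 with DESeq2, 5 with 2 groups, and 1 with RLE scaling, upper quartile scaling or the replicate block. With 1 mouse left out it ranged from 0 to 3 in *db/db*-dapa versus *db/db* and from 0 to 6 in *db/db*-dapa versus *db/m* mice, both highest without *db/db* replicate 3.

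Directions turned where log2 fold changes were near 0. Atp1b1 in *db/db* versus *db/m* mice was 0.012 with library totals alone and 0.00027 without the length trend, and in *db/db*-dapa versus *db/db* mice it was -0.050 with upper quartile scaling, -0.050 with library totals and -0.025 without the length trend. Slc13a3 in *db/db* versus *db/m* mice was -0.12 with limma at either pseudocount and -0.066 with the replicate block. Slc4a2 in *db/db*-dapa versus *db/m* mice was -0.063 without the length trend. Slc9a3 in *db/db*-dapa versus *db/db* mice was -0.000102 with upper quartile scaling and -0.025 with library totals. With 1 mouse left out, Slc9a3 in *db/db*-dapa versus *db/db* mice ranged from -0.36 to 1.17, Slc9a8 there from -0.023 to 0.57, Atp1b1 there from -0.066 to 0.084, Atp1b1 in *db/db*-dapa versus *db/m* mice from -0.19 to 0.01, Slc4a2 there from -0.031 to 0.32, and Slc13a3 in *db/db* versus *db/m* mice from -0.39 to 0.46. Of 9 same-numbered pairs across groups, 3 had a correlation of deviations over 0.1 (range -0.32 to 0.56), and 4 of 9 mice correlated best with their own number. Between *db/db* and *db/db*-dapa mice it was 0.40 for replicates 1, -0.16 for replicates 2 and 0.56 for replicates 3. Whether the replicate numbers pair the mice could not be told from these values. The replicate block changed the call of 0 of the 8 carriers. Depth limits Slc26a6 most, with 24 counts in *db/db* replicate 1.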

Other observations

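The proton pump secretes acid beside the sodium-proton exchangers. In *db/db*-dapa versus *db/m* mice, 0 of its 22 tested subunits were called (1.05% of all genes). An unadjusted p under 0.05 was found for 7 subunits with lower values (8.39% of all genes) and for 1 with higher values, Atp6v0a4 (9.77% of all genes). Without overlap, 9 of the 22 were lower (13.7% of all genes) and 1 was higher (14.4% of all genes). The 9 included no intercalated cell marker used here. Among them was Atp6v0c, at 456, 398 and 458 CPM in *db/m* and 375, 313 and 295 CPM in *db/db*-dapa mice. Their transcripts measure from 1 kb (Atp6v0b) to 4.83 kb (Atp6v1h). The part of transcript length in these values was not tested. Atp6v1g3, a subunit known from intercalated cells and one of the markers of these cells used here, was at 33.5, 14.3 and 75.5 CPM in *db/m*, 37.7, 28.4 and 14.3 CPM in *db/db* and 18.2, 14.97 and 8.94 CPM in *db/db*-dapa mice. Its log2 fold change in *db/db*-dapa versus *db/m* mice was -1.55 (standard error 0.53, adjusted p = 0.201 with edgeR), and the groups overlapped. The 8 intercalated cell markers together summed to 335 CPM in *db/m* replicate 3, the highest of the 9 mice, as Atp6v1g3 was. Atp6v0a4, the a4 subunit, was at 234, 285 and 187 CPM in *db/m*, 256, 273 and 434 CPM in *db/db* and 305, 379 and 386 CPM in *db/db*-dapa mice, highest in *db/db* replicate 3 and higher in all *db/db*-dapa than in all *db/m* mice (log2 fold change 0.60, standard error 0.24, adjusted p = 0.238 with edgeR). The subunits named here were chosen for mention after their values were seen.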
